A study of Mus musculus with 2 samples.

Results

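Dendritic cells take up antigen in tissues and present it to T cells on MHC class II molecules. Their precursors depend on the cytokine receptor encoded by *Flt3*, and tissues hold a conventional type 1 lineage marked by *Clec9a* and *Xcr1*, which needs the transcription factors *Irf8* and *Batf3*, and a type 2 lineage that carries lectins and signal-regulatory protein alpha. *Cd209a*, a lectin related to human DC-SIGN, is carried by type 2 dendritic cells and by cells of monocyte origin, so that it does not separate these. Here the dendritic cells were 154 of 4295 CD45+ cells sorted from mouse BAT, 66 of 2279 in the control library and 88 of 2016 in the library of mice lacking ATGL in adipocytes (AdipoΔ/Δ). Cells were chosen from raw counts of unique molecular identifiers (UMIs, 1 for each captured transcript). The sum of *Cd209a*, *Flt3*, *Clec9a* and *Xcr1* had to reach 2, the sum of *H2-Aa*, *H2-Ab1*, *H2-Eb1* and *Cd74* had to reach 20, the 3 C1q genes together could not exceed 1, and *Cd79a* and *Cd3e* had to be 0. The level of these genes among the chosen cells is therefore set by the choice and is not a finding.

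Both libraries came from male mice on C57Bl/6, aged 16 weeks in the sample labels (a younger age is given in the study's legends), that carried *AdipoQ*-CreERT2 and ATGLfl/fl. The control mice received vehicle. The AdipoΔ/Δ mice received tamoxifen, which activates the Cre recombinase in cells using the adiponectin promoter, so tamoxifen itself also differed between the libraries. The deleted gene is lost in adipocytes, which the CD45 sort removed, and the deletion cannot be checked in these cells. There was 1 library per group and the number of mice behind each was not stated, so genotype, tamoxifen and library cannot be told apart and no difference between the libraries was tested. Values in parentheses bound exact 95% intervals (by Clopper-Pearson for a share, by the conditional binomial for a ratio), which cover counting error only.

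The dendritic cells held 451063 UMIs in the control and 652015 in the AdipoΔ/Δ library. A cell had a median of 5920 UMIs (range 1382 to 17535) in the control and 6605 (range 1217 to 18211) in the AdipoΔ/Δ library, against 3622 and 3866 in all other kept cells. Mitochondrial genes gave a median of 1.18% of the UMIs of a control cell and 2.07% of those of an AdipoΔ/Δ cell. The libraries shared 4 barcodes, none of them among the dendritic cells. Scrublet called 0.308% of control and 0.252% of AdipoΔ/Δ barcodes doublets and none of the dendritic cells, too few calls to show that doublets were found. No cell was removed for it.

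The admitting genes lie apart in the GRCm38 assembly, *Cd209a* at chr8:3743397-3748984, *Flt3* at chr5:147330741-147400489, *Clec9a* at chr6:129408862-129424763 and *Xcr1* at chr9:123852315-123862029, all protein-coding. *Cd209a* was counted in 56 of 66 control and 66 of 88 AdipoΔ/Δ cells. It was the only one of the 4 in 33 and 37 cells, and *Cd209a* with *Flt3* was the next most frequent combination, in 19 and 25 cells. *Flt3* had a UMI in 28 and 49 cells, *Clec9a* in 10 and 16, and *Xcr1* in 8 and 14. Most cells were thus admitted by *Cd209a*, which has related genes. Its relative *Cd209d* was counted apart, with 41 and 97 UMIs, and whether reads are shared was not tested. At the border of the choice, 8 control and 15 AdipoΔ/Δ cells had a sum of exactly 2, and 19 and 29 further cells met every other condition with a sum of 1. *Lyz2*, the lysozyme gene of monocytes and macrophages, stood at 16856 UMIs per 1000000 UMIs of the pooled cells (CPM) in the control and 10324 in the AdipoΔ/Δ cells just outside. It stood at 3614 and 7577 in those with a sum of 2. At the C1q border, 2 control and 18 AdipoΔ/Δ cells had exactly 1 C1q UMI, and 0 and 3 cells with 2 or 3 were left out.

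Genes that the choice did not use were set beside other cells. They had been listed with earlier results of these data known, so this is no independent check of the name. *Cst3*, a cysteine protease inhibitor abundant in dendritic cells, had 7485 CPM in control and 8303 in AdipoΔ/Δ dendritic cells. It had 2175 and 2418 in classical monocytes, 3108 and 2636 in C1q macrophages, and 498 and 548 in B cells. These comparison cells were chosen by UMI sums as well, and held 282 and 109 monocytes, 58 and 195 macrophages, and 235 and 81 B cells. *Ccnd1*, encoding cyclin D1, had 253 and 317 CPM in dendritic cells, 1 UMI in all control monocytes and none in AdipoΔ/Δ monocytes. It also had 136 and 119 CPM in C1q macrophages, so that it set the cells apart from monocytes more than from macrophages. *Tnni2* had 118 and 123 CPM in dendritic cells and at most 12.7 CPM in any comparison group. Both *Cst3* and *Tnni2* were higher in the minority of cells with *Clec9a* or *Xcr1*. In the cells with *Cd209a* and neither of these, *Cst3* had 4876 and 3651 CPM and *Tnni2* 33.6 and 60.8. Markers of other cells were present at unequal levels. Classical monocyte genes summed to 6134 CPM in control and 6811 in AdipoΔ/Δ dendritic cells, against 39197 and 41444 in monocytes. This list holds *Ly6c2* and *Lyz2*, by which the monocytes were chosen, so part of the gap is set by the choice. The macrophage list without the C1q genes summed to 479 and 744 CPM, against 10318 and 8927 in C1q macrophages, and the natural killer list to 35.5 and 402. The B cell list without *Cd79a* summed to 206 and 244 CPM, against 114587 and 132843 in B cells. In it *Ms4a1* and *Pax5* were at 0 in both libraries, while *Ighm* had 71 and 135 UMIs in 36 and 60 cells. T cell genes summed to 2 and 6 UMIs and adipocyte genes to 0 and 3.

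Dendritic cells were a larger share of the AdipoΔ/Δ than of the control library. They were 2.90% (2.25 to 3.67) of control and 4.37% (3.52 to 5.35) of AdipoΔ/Δ cells, a ratio of 1.51 (1.08 to 2.11). Among cells with at most 1 C1q UMI, which leaves out the macrophages, the shares were 3.04% and 5.56% and the ratio 1.83 (1.31 to 2.56). The size of the ratio rested in part on cells at the borders. It was 1.24 (0.868 to 1.76) when no C1q UMI was allowed, 1.42 (0.994 to 2.04) when the sum of the admitting genes had to reach 3, and 1.18 (0.756 to 1.82) at the mitochondrial limit of 2% given in the methods of the study, which kept 1306 control and 889 AdipoΔ/Δ barcodes. These are fewer cells than the study states after its filters, so that the setting may differ from the one used there. A share says nothing of the number of cells in the tissue.

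**Figure D1:**
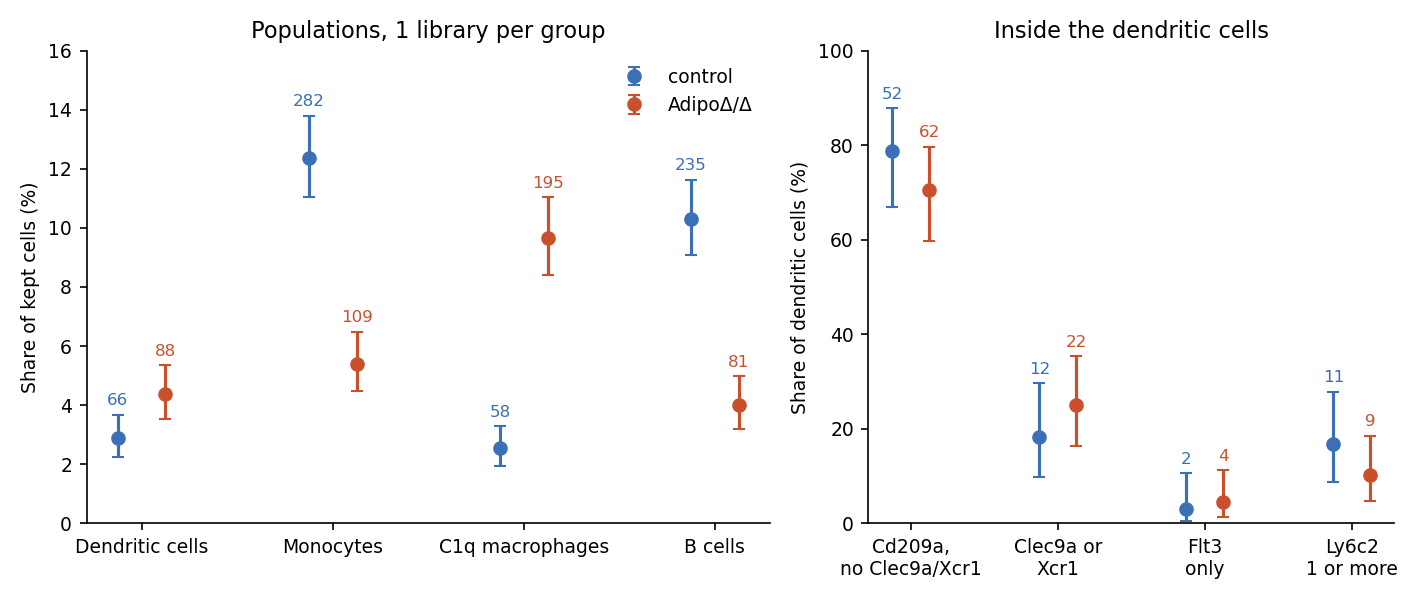
Left, share of kept cells (%) for the dendritic cells and 3 comparison populations in the control and AdipoΔ/Δ libraries. Right, share of the dendritic cells (%) in each subgroup, where cells with *Ly6c2* overlap the other subgroups. Points are shares, bars exact 95% intervals of counting error, and numbers are cells. Dendritic cells were 2.90% of the control and 4.37% of the AdipoΔ/Δ library.

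Cells with *Clec9a* or *Xcr1*, the receptors of the type 1 lineage, were a minority in both libraries. They were 12 of 66 control dendritic cells (18.2%, 9.76 to 29.6) and 22 of 88 AdipoΔ/Δ dendritic cells (25%, 16.4 to 35.4), a ratio of 1.38 (0.652 to 3.05). The interval holds both a lower and a higher share, and the difference was not detectable at this depth. With at least 2 UMIs of both genes together, 9 and 16 cells remained. After each cell was thinned to 1000 UMIs, 6 (9.09%) and 9 (10.2%) carried a UMI. The same genes had a UMI in 0 of 282 control and 1 of 109 AdipoΔ/Δ monocytes, in 0 of 58 and 3 of 195 C1q macrophages, and in no B cell, at median depths of 1954 to 8133 UMIs. Monocytes and B cells had been chosen with fewer than 2 UMIs of the admitting genes together. Their low counts are thus largely set by the choice and show no specificity. The macrophages were not limited in this way. As a share of all kept cells, these dendritic cells were 0.527% of the control and 1.09% of the AdipoΔ/Δ library. A further 52 control and 62 AdipoΔ/Δ cells had *Cd209a* without *Clec9a* or *Xcr1*, and 2 and 4 had *Flt3* alone. *Cd209a* occurred beside *Clec9a* or *Xcr1* in 4 cells of each library. A single UMI can thus place a cell rich in *Cd209a* in this group. A control cell had 16 and an AdipoΔ/Δ cell 45 *Cd209a* UMIs beside 1 UMI of *Clec9a* or *Xcr1*.

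The cells with *Clec9a* or *Xcr1* and the cells with *Cd209a* alone of these differed in other genes, in the same direction in both libraries. *Irf8*, which the type 1 lineage requires, had 848 CPM in the former and 211 in the latter in the control library, and 1089 against 50.0 in the AdipoΔ/Δ library. *Wdfy4*, which type 1 dendritic cells use for cross-presentation, had 362 against 79.3 CPM and 493 against 69.5. *Id2*, a regulator of dendritic cell development, had 467 against 134 and 837 against 167, and *Naaa*, a lysosomal amidase, 953 against 241 and 1382 against 424. Within the former group, the 4 control cells that also had *Cd209a* had at most 2 *Naaa* UMIs each, and the 4 such AdipoΔ/Δ cells at most 10. *Cst3* had 14848 against 4876 and 21118 against 3651. *Tnni2*, given as a marker of all dendritic cells, stood mainly on this side, with 372 against 33.6 and 298 against 60.8 CPM. *Rtl8a* and *Rtl8b* were higher there too, at 410 against 33.6 and 238 against 18.3 in the control. They are close copies of each other, whose reads may be shared.

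The other side was marked by genes that macrophages and monocytes use. *Mrc1*, the mannose receptor, had 45 UMIs in control and 118 in AdipoΔ/Δ cells with *Cd209a* and 0 in the cells with *Clec9a* or *Xcr1* of both libraries. *Fcgr3*, an Fc receptor, had 36 and 36 UMIs against 0 and 0. *Csf1r*, the receptor for macrophage colony-stimulating factor, had 32 and 68 UMIs against 1 and 1, *Pltp*, a phospholipid transfer protein, 63 and 164 against 0 and 1, and *F13a1* 60 and 81 against 3 and 0. The lectin genes *Clec4a1* and *Clec4a3* and the monocyte gene *Ms4a4c* were also higher on this side in both libraries. Of 1380 genes counted, 20 were at least 2-fold higher in the cells with *Clec9a* or *Xcr1* in both libraries and 72 in the cells with *Cd209a*. The split was made on UMIs of these same cells, at median depths of 8809 (control) and 7788.5 (AdipoΔ/Δ) UMIs against 5444 and 6457, and these values describe it without a test. *Ly6c2*, a classical monocyte gene, was found in 11 control and 9 AdipoΔ/Δ dendritic cells, and 46 of its 75 AdipoΔ/Δ UMIs were in 1 cell.

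**Figure D2:**
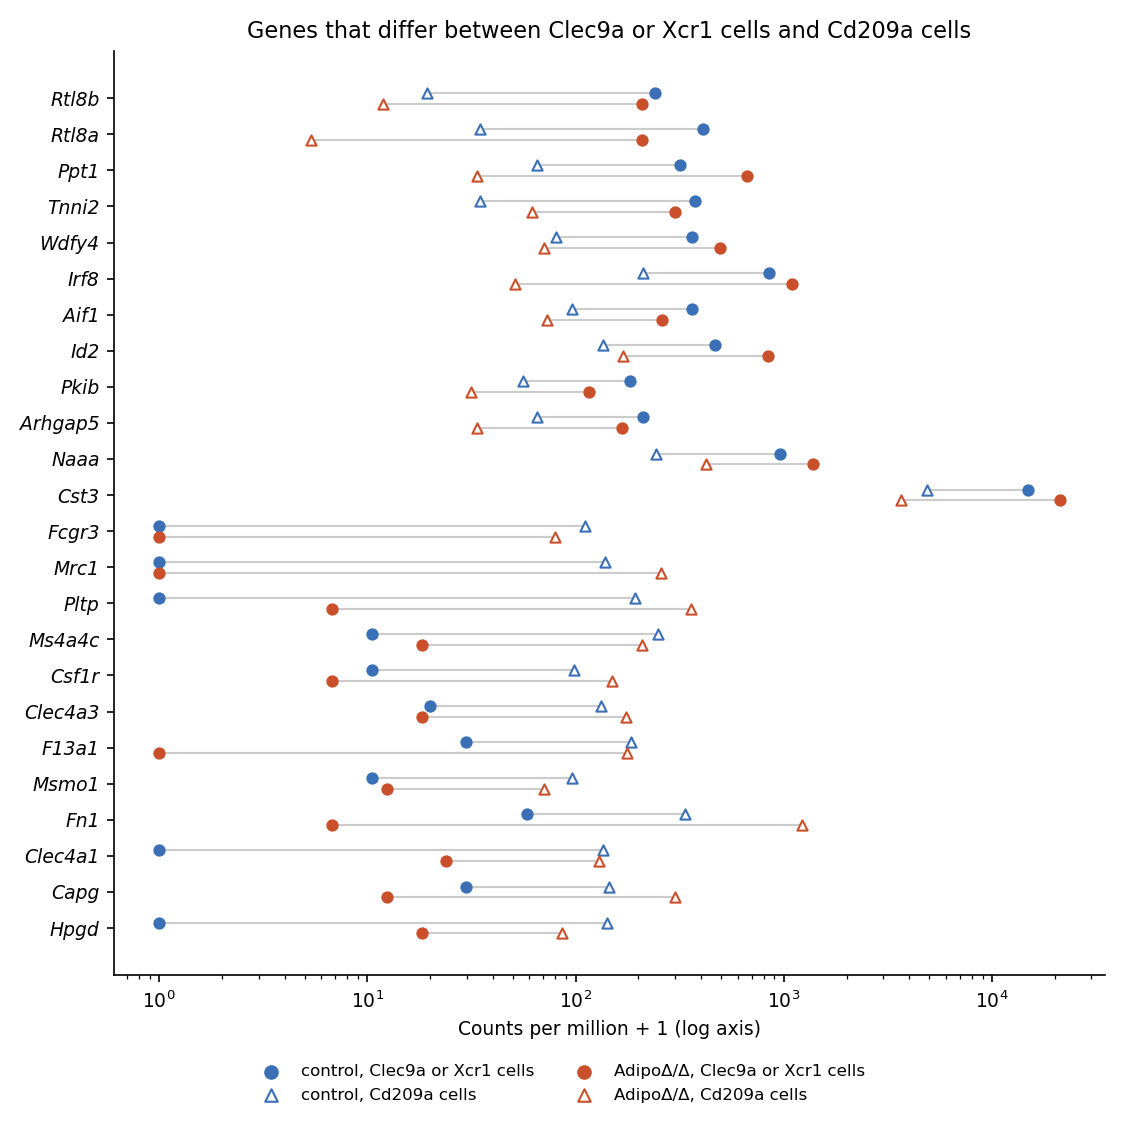
Level of the 12 genes per side that differed most in both libraries (CPM + 1, log axis). Filled circles are dendritic cells with *Clec9a* or *Xcr1*, open triangles those with *Cd209a* and neither of them, and lines join the sides within a library. *Irf8*, *Wdfy4* and *Cst3* lie to the right for the circles, *Mrc1* and *Fcgr3* at the left end, where no UMI was counted.

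Compared with classical monocytes, 147 of 5247 genes (2.8%) were at least 2-fold higher in dendritic cells in both libraries and 486 (9.26%) at least 2-fold lower. Of 12 counted genes of the general dendritic list, 8 were higher and none lower, with a median log2 ratio of 1.70 in the control and 1.75 in the AdipoΔ/Δ library, against -0.31 and -0.19 over all genes counted. The peptide-loading genes of MHC class II were among the largest differences. *H2-Ob*, a subunit of the inhibitor of peptide exchange, had 99.8 and 55.2 CPM in dendritic cells against 2.16 and 1.11 in monocytes, and its partner *H2-Oa* 93.1 and 44.5 against 0.863 and 2.22. *Mgl2*, a galactose-binding lectin, had 333 and 390 CPM against 1.29 and 4.44. *Cd209d*, a paralogue of *Cd209a*, had 90.9 and 149 against 0 and 3.33. Interferon-stimulated genes went the other way, with 14 of 16 counted at least 2-fold lower in dendritic cells in both libraries. *Cxcl10*, an interferon-induced chemokine, had 0 UMIs in the dendritic cells of both libraries against 65.6 and 327 CPM in monocytes. Of 8 classical monocyte genes, 6 were lower, among them *Chil3* with 11.1 and 7.67 against 1138 and 1098 CPM.

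Against C1q macrophages, 81 of 2644 genes (3.06%) were at least 2-fold higher in dendritic cells in both libraries and 204 (7.72%) lower. *Bcl11a*, a transcription factor of lymphoid and dendritic cells, had 113 and 81.3 CPM against 4.01 and 3.30. *Napsa*, an aspartic protease, had 581 and 503 against 44.1 and 46.8, and *Cd24a* 173 and 172 against 16.0 and 19.8. Of 8 type 1 genes counted, 4 were higher and 1 lower. Of 11 type 2 genes, 0 were higher and 3 lower, with median log2 ratios of -1.12 (control) and -0.11 (AdipoΔ/Δ). Over all genes counted these medians were -0.11 and -0.06. The type 2 list thus did not set these cells apart from macrophages. Against monocytes 4 of 12 type 2 genes were higher and 2 lower. All 10 macrophage genes counted, without the C1q genes that made the choice, were at least 2-fold lower, as were 8 of 10 lipid-handling genes. *Gpnmb* and *Lyve1* had 0 UMIs in the dendritic cells of both libraries. Against B cells, which also present antigen on MHC class II, 452 of 3165 genes (14.3%) were higher and 248 (7.84%) lower. All 12 lectin and uptake genes counted were higher in dendritic cells than in B cells. This did not hold for the other populations. Against C1q macrophages 0 of 14 genes of this list were higher and 7 lower, and against monocytes 5 of 16 were higher and 7 lower. *Clec10a*, a macrophage galactose-type lectin, had 257 and 264 CPM against 4.33 and 3.17, and *Clec4b1* 215 and 313 against 1.44 and 0. All 7 B cell genes counted were lower. Of 10 genes of MHC class II presentation, 3 were higher and 4 lower than in B cells.

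**Figure D3:**
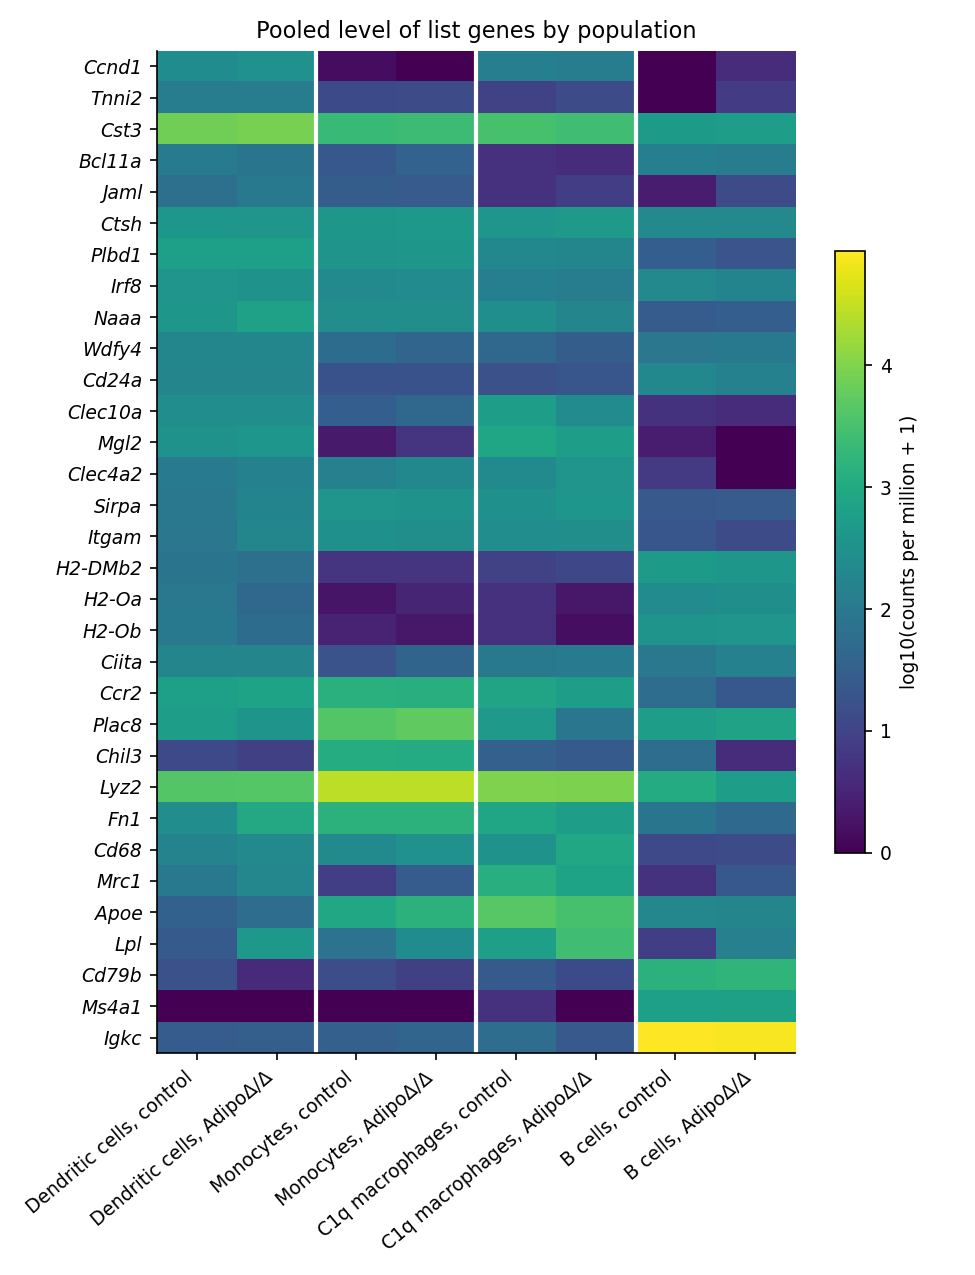
Colour gives log10(CPM + 1) of 32 listed genes, pooled over the cells of each population and library. The first pair of columns are the dendritic cells, with *Cst3* at 7485 and 8303 CPM, *Ccnd1* and *Mgl2* above monocytes and B cells, and *H2-Oa* and *H2-Ob* above monocytes and macrophages.

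Most genes counted in the dendritic cells, identity genes among them, stayed within 2-fold between the libraries. Of 3787 genes with at least 30 UMIs over both libraries, 291 (7.68%) were at least 2-fold higher in AdipoΔ/Δ dendritic cells and 27 (0.713%) at least 2-fold lower. None of 12 counted genes of the general dendritic list passed 2-fold in either direction, with a median log2 ratio of 0.11. With so few genes this count is near the share over all genes and is no result about the list. Over all genes counted the median was 0.21. *Gm42418*, a locus that overlaps ribosomal RNA, took 9.94% of the UMIs of control and 5.86% of those of AdipoΔ/Δ dendritic cells, and ribosomal protein genes 28.9% and 24.7%. In the other kept cells *Gm42418* took 9.89% and 6.38%. With levels centred on the median gene, 174 genes were higher and 61 lower, so the split moved from 91.5% to 74.0% higher. Ratios below are relative to total UMIs and include this shift.

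Antigen presentation genes were near this background. None of 14 counted genes of MHC class I presentation and 1 of 10 of MHC class II presentation passed 2-fold. Outside the genes that made the choice, *H2-DMa* and *H2-DMb1*, which load peptides, had ratios of 1.13 (1.00 to 1.28) and 1.01 (0.889 to 1.15). *Ciita*, the master regulator of MHC class II genes, had 173 CPM in the control and 172 in the AdipoΔ/Δ library. The exception was *H2-Oa*, with 42 UMIs in 22 control cells and 29 in 16 AdipoΔ/Δ cells, a ratio of 0.478 (0.287 to 0.785). *H2-Ob* had a ratio of 0.553 (0.347 to 0.877), and the other kept cells had ratios of 0.637 and 0.589 for these genes. In the class I list, *B2m*, the light chain of class I molecules, had a ratio of 1.26 (1.14 to 1.39), *Calr* of 1.44 (1.21 to 1.72) and *Pdia3* of 1.50 (1.19 to 1.92), the last pair being chaperones of peptide loading. The last pair also had ratios of 1.91 and 1.59 in all other kept cells.

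Over the pooled cells, genes that mark the lineages mostly stayed within 2-fold. The counts were near the share over all genes, of which 7.68% were higher and 0.713% lower. In the type 1 list 1 of 11 genes counted passed 2-fold, *Btla* with 7 and 24 UMIs, a ratio of 2.37 (0.992 to 6.52). *Irf8* had a ratio of 0.867 (0.705 to 1.07), *Batf3* of 0.898 (0.646 to 1.25) and *Naaa* of 1.66 (1.39 to 1.97). The pooled *Irf8* ratio hides unlike values in the subgroups. It had 848 and 1089 CPM in control and AdipoΔ/Δ cells with *Clec9a* or *Xcr1*. In the cells with *Cd209a* and neither of these it had 211 and 50.0 CPM, from 69 and 23 UMIs. In the type 2 list 1 of 12 passed, *Itgam*, the CD11b integrin, with 40 UMIs in 24 control cells and 120 in 43 AdipoΔ/Δ cells, a ratio of 2.08 (1.44 to 3.05). *Sirpa* had a ratio of 1.80 (1.25 to 2.63), *Clec10a* of 1.03 (0.806 to 1.31) and *Mgl2* of 1.17 (0.954 to 1.44). The *Itgam* ratio fell under 2-fold, to 1.48, without the cells rich in *Lpl* described below, and was 1.29 as a mean of CPM per cell and 0.917 in a random draw of 1000 UMIs per cell. None of 6 interferon-stimulated genes counted passed 2-fold, and *Ifi27l2a* had a ratio of 0.786 (0.689 to 0.896). *Ccr2*, the monocyte chemokine receptor that type 2 dendritic cells also carry, had 605 CPM in the control and 736 in the AdipoΔ/Δ library, a ratio of 1.22 (1.05 to 1.42).

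**Figure D4:**
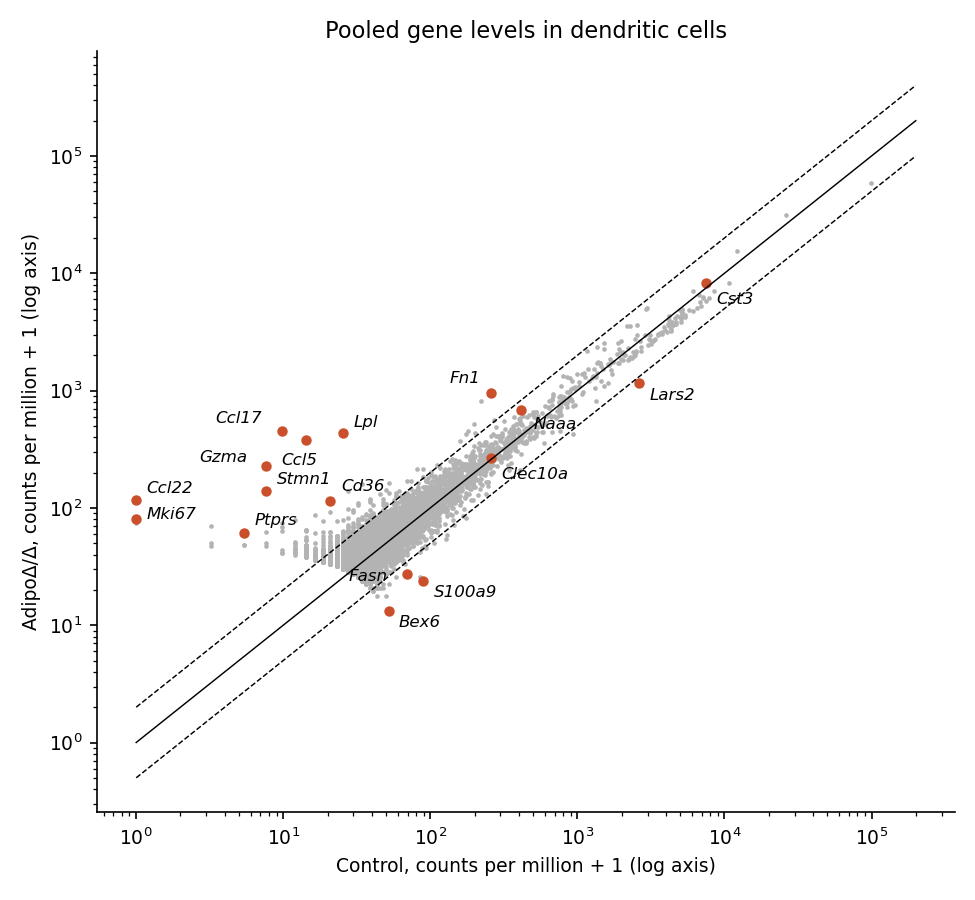
Level of each of 3787 genes in the pooled dendritic cells of the control (horizontal) and AdipoΔ/Δ library (vertical), as CPM + 1 on log axes. The solid line marks equal levels, dashed lines a 2-fold difference, and named genes are red. *Cst3* and *Clec10a* lie near the solid line, *Lpl*, *Ccl17*, *Fn1* and *Cd36* above and *Bex6*, *S100a9* and *Lars2* below the dashed lines.

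The lipid-handling list had 4 of 10 counted genes at least 2-fold higher in AdipoΔ/Δ cells and none lower, beside 7.68% and 0.713% of all genes counted, with a median log2 ratio of 0.97 against 0.21 over all genes. *Lpl* (chr8:68880491-68907448), lipoprotein lipase, had 11 UMIs in 5 of 66 control cells and 283 UMIs in 24 of 88 AdipoΔ/Δ cells, a ratio of 17.8 (9.80 to 36.1). It was 12.9 without the richest cell. *Cd36*, a fatty acid receptor, had 9 UMIs in 4 control cells and 74 in 22 AdipoΔ/Δ cells, a ratio of 5.69 (2.84 to 12.9). *Abcg1*, a cholesterol exporter, had a ratio of 3.92 (1.63 to 11.4) and *Fabp5*, a fatty acid-binding protein, of 2.59 (1.62 to 4.30). *Plin2*, the coat protein of lipid droplets, had 55.4 and 106 CPM, a ratio of 1.91 (1.19 to 3.15). The same genes were higher in all other kept AdipoΔ/Δ cells, with ratios of 13.5 for *Lpl*, 8.05 for *Cd36*, 3.82 for *Fabp5* and 6.71 for *Plin2*, though 1.15 for *Abcg1*. In B cells, which should lack it, *Lpl* had a UMI in 4 of 235 control cells and 8 of 81 AdipoΔ/Δ cells (1.70% and 9.88%), at median depths of 1954 and 2488 UMIs. After thinning to 1000 UMIs, *Lpl* was left in 4.55% of control and 14.8% of AdipoΔ/Δ dendritic cells and in 0.957% and 4.11% of B cells.

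The *Lpl* counts were uneven among the cells. At least 3 UMIs were found in 2 control and 11 AdipoΔ/Δ dendritic cells, and these 11 cells held 268 of the 283 AdipoΔ/Δ UMIs. None of them had *Clec9a* or *Xcr1*, and 9 had a sum of the admitting genes between 2 and 4, 5 of them exactly 2. These 11 cells stood apart in other genes. Against the other 77 AdipoΔ/Δ dendritic cells, *Lyz2* was at 13012 against 2496 CPM, the classical monocyte list at 19883 against 4090, and the macrophage list at 1566 against 573. *Cst3* was at 1700 against 9678 CPM and *Ccnd1* at 44.5 against 374. The general dendritic list without *Cst3* and *Flt3* was at 1967 against 2742. The 77 cells include all 22 AdipoΔ/Δ cells with *Clec9a* or *Xcr1*, where *Cst3* had 21118 CPM. It had 3651 in the cells with *Cd209a* and neither of these. The median mitochondrial share of the 11 cells was 2.87% against 1.98%. They thus had less *Cst3* and *Ccnd1* and more of the monocyte and macrophage genes than the 77 cells, which differ from them in lineage make-up. *Fn1*, encoding fibronectin, had 116 UMIs in 22 control cells and 616 in 31 AdipoΔ/Δ cells, a ratio of 3.67 (3.01 to 4.52), and the 11 cells held 539 of the 616. They also held 40 of the 74 *Cd36* UMIs. Without the cells with at least 3 *Lpl* UMIs the ratio was 0.673 for *Fn1*, 3.08 for *Lpl* and 3.1 for *Cd36*, 144 in place of 291 genes were at least 2-fold higher, and the ratio of the shares was 1.36 (0.964 to 1.93). With a sum of the admitting genes of at least 3, *Lpl* had a ratio of 8.38 and *Fn1* of 2.05.

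**Figure D5:**
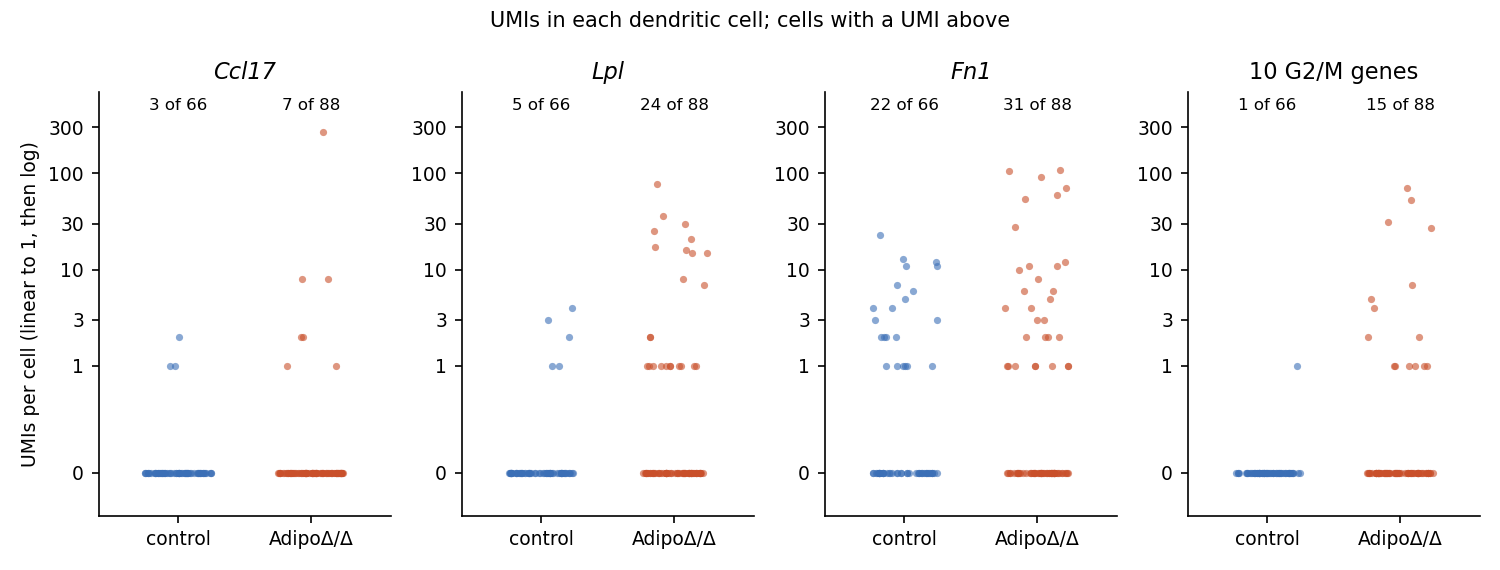
UMIs of *Ccl17*, *Lpl*, *Fn1* and the 10 G2/M genes together in each dendritic cell of the control and AdipoΔ/Δ library, on an axis that is linear to 1 and logarithmic above, with points spread sideways for sight. Numbers above are cells with a UMI. A single AdipoΔ/Δ cell held 272 of 294 *Ccl17* UMIs, while 11 cells had at least 3 *Lpl* UMIs.

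Cytokine and chemokine genes had 5 of 12 counted at least 2-fold higher in AdipoΔ/Δ cells, beside 7.68% of all genes counted, but few cells carried them. *Ccl17* (chr8:94810453-94812036) and *Ccl22* (chr8:94745590-94751699), neighbouring genes for ligands of CCR4 made by activated dendritic cells, had 4 and 0 UMIs in the control and 294 and 76 in the AdipoΔ/Δ library. For *Ccl17* the ratio was 50.8 (19.6 to 188), and *Ccl22* was at least 17.5-fold higher, with 3 UMIs as the floor for the control. A single AdipoΔ/Δ cell held 272 of the *Ccl17* and 64 of the *Ccl22* UMIs. It had 14185 UMIs, 12 of *Cd209a*, 16 of *Cd83* and none of *Ccr7*, and with 15 *Lpl* UMIs it was 1 of the 11 cells rich in *Lpl*. Without it, *Ccl17* had a ratio of 3.8. *Ccl17* was found in 3 of 66 control and 7 of 88 AdipoΔ/Δ cells, a ratio of 1.75 (0.400 to 10.5), and in no monocyte or B cell. Among C1q macrophages it was found in 0 of 58 control and 3 of 195 AdipoΔ/Δ cells, with up to 18 UMIs in a cell. *Ccr7*, the receptor that guides dendritic cells to lymph nodes, had 5 UMIs in 1 AdipoΔ/Δ cell and none in 66 control cells, so that the share of control cells with a UMI had an exact interval of 0 to 5.44%, which does not limit the share of cells that express it. *Cxcl9* had 48 UMIs in 4 AdipoΔ/Δ cells and none in the control, and *Il1rn* 31 against 2, of which 25 were in 1 cell. The costimulatory genes *Cd83* and *Cd86* were spread over 15 and 14 AdipoΔ/Δ cells and 9 and 3 control cells, with ratios of 3.30 (1.80 to 6.54) and 3.23 (1.31 to 9.54). Of 7 counted genes of mature and migratory dendritic cells, 5 were at least 2-fold higher, beside 7.68% of all genes counted. They were *Cd83* and *Cd86*, and *Ccl17*, *Ccl22* and *Ccl5*, whose UMIs lay mostly in 1 cell each, so that the count does not describe many cells.

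Another AdipoΔ/Δ cell carried genes of natural killer cells. It held 222 of the 245 *Ccl5*, 138 of the 148 *Gzma*, 27 of the 30 *Nkg7* and all 45 *Klra4* UMIs, with 13 UMIs of *Klrb1c*, 8 of *Ncr1*, 4 of *Cd209a* and 77 of *Cd74*. Ratios over all cells were 28.2 (12.8 to 77.7) for *Ccl5*, 34.1 (11.5 to 167) for *Gzma*, 20.8 (3.45 to 847) for *Nkg7* and 31.1 (5.31 to 1257) for *Klra4*. Without the richest cell *Ccl5* had a ratio of 2.65, *Gzma* of 2.31 and *Nkg7* of 2.08, and *Klra4* was left with 0 UMIs against 1 in the control. Leaving out this cell and the cell with most *Ccl17* gave 258 genes at least 2-fold higher and 27 lower.

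Genes of cell division were counted in AdipoΔ/Δ and nearly absent from control dendritic cells. The 10 G2/M genes had 1 UMI in the control and 207 UMIs in 15 AdipoΔ/Δ cells. At least 3 of these UMIs were found in 0 of 66 control cells (0%, 0 to 5.44) and in 7 of 88 AdipoΔ/Δ cells (7.95%, 3.26 to 15.7). In all other kept cells the shares were 1.76% and 3.63%. *Mki67*, a marker of cycling cells, had 0 UMIs in the control and 52 in 11 AdipoΔ/Δ cells and was at least 12-fold higher. *Top2a*, topoisomerase II alpha, had 0 and 50 UMIs in 9 cells and was at least 11.5-fold higher. *Stmn1*, which acts on microtubules in dividing cells, had 3 and 91 UMIs in 2 and 17 cells, a ratio of 21.0 (6.96 to 104). Of the 7 cells, 2 carried *Clec9a* or *Xcr1* and 5 did not, and 1 was among the 11 cells rich in *Lpl*. Thinned to 1000 UMIs, 0 control and 9 AdipoΔ/Δ cells had a G2/M UMI. Genes of DNA replication summed to 146 and 299 CPM, a ratio of 2.04 (1.54 to 2.74). Without the 7 cells, 253 genes were at least 2-fold higher and 23 lower.

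A few further genes had large ratios. *Ptprs* (chr17:56412426-56476483), a receptor tyrosine phosphatase, had 2 UMIs in 2 control cells and 39 in 25 AdipoΔ/Δ cells, with at most 5 in a cell, a ratio of 13.5 (3.49 to 115). The ratio was 11.8 without the richest cell and 4.21 in all other kept cells. *Axl*, a receptor for dying cells, had 1 UMI in 1 control cell and 26 in 10 AdipoΔ/Δ cells, 18 of them in 3 cells. *Hsp90aa1*, a heat shock protein, had 79 UMIs in 36 control cells and 277 in 61 AdipoΔ/Δ cells, a ratio of 2.43 (1.88 to 3.16) against 2.03 in other kept cells, and 3 of 14 genes of the stress and immediate early list were at least 2-fold higher and 1 lower, beside 7.68% and 0.713% of all genes counted. The mitochondrial share, a sign of RNA quality, was also higher in these AdipoΔ/Δ cells, as given above, and its part in these values was not tested. *Mrc1* had a ratio of 1.89 (1.33 to 2.72), and the macrophage list, with none of 6 counted genes past 2-fold, summed to 479 and 744 CPM. *C1qa*, *C1qb* and *C1qc* were limited by the choice.

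The genes lower in AdipoΔ/Δ cells were fewer and their counts small. *Bex6* had 23 UMIs in 10 control and 8 in 7 AdipoΔ/Δ cells, a ratio of 0.241 (0.0931 to 0.557). *S100a9*, a neutrophil alarmin, had 40 and 15 UMIs, a ratio of 0.259 (0.133 to 0.480), and 0.330 in other kept cells. At most 3 UMIs were found in a dendritic cell. *Fasn*, fatty acid synthase, had 31 UMIs in 18 control and 17 in 14 AdipoΔ/Δ cells, a ratio of 0.379 (0.197 to 0.707), while other kept cells had 1.25. *Lars2* had 1186 and 758 UMIs, a ratio of 0.442 (0.403 to 0.485), and 0.434 in other kept cells. *Rtl8a* had a ratio of 0.453 (0.293 to 0.694), and 0.657 without the richest cell. *Mt2*, a metallothionein, had 12 of its 22 control UMIs in 1 cell. *Rnaset2a* and *Rnaset2b*, near-identical copies that may share reads, had ratios of 0.421 and 0.450.

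Among single cells, the genes that varied most beyond their mean in both libraries were *Gm42418*, *Malat1*, *Lyz2*, *Cst3*, *Retnla*, *Tmsb10*, *Tmsb4x*, *Actb*, *Ifitm3* and *Fos*. *Lyz2* reached 379 UMIs in a control and 496 in an AdipoΔ/Δ cell, and *Cst3* 395 and 537. *Retnla*, a secreted product of alternatively activated macrophages, had 100 UMIs in 11 control cells and 528 in 47 AdipoΔ/Δ cells, of which 182 were in 1 cell. Its ratio was 3.65, but 0.716 with a sum of the admitting genes of at least 3 and 1.23 without the cells rich in *Lpl*. *Retnla* also had a UMI in 8.09% of control and 43.2% of AdipoΔ/Δ B cells, which should lack it. After thinning to 1000 UMIs it was left in 9.09% and 14.8% of dendritic cells and in 3.35% and 21.9% of B cells. In the AdipoΔ/Δ library the thinned share of dendritic cells with it was thus no higher than that of B cells. Without thinning the dendritic cells were higher, at 53.4% of cells, and at 810 against 386 CPM in the pooled cells. Whether the B cell counts are background was not tested.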

How the data were processed

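Single-cell RNA of sorted CD45+ BAT cells was measured in 1 library per group with 3′ droplet chemistry. The authors aligned reads with Cell Ranger (4.0.0 in the file header, build mm10 per the submitters' processing notes) and, with Seurat named beside it in those notes, deposited whole-number UMI counts per gene and barcode without normalization, 2597 control and 2381 AdipoΔ/Δ barcodes with 11327187 and 12028844 UMIs. Columns of the counts are cells, and groups came from the sample labels.

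A barcode was kept if 200 or more genes were detected in it and mitochondrial genes gave no more than 10% of its UMIs. The 2% limit of the study was an alternative. Of 32285 genes, 78 rows carry a symbol already used. The members and the 27 gene lists were chosen with earlier results of these data known. Of 380 list entries, 6 were not found under their symbol. Named genes were list members, the 12 with the largest ratio in each direction, the 12 per comparison population, and the 10 most variable. The cells rich in *Lpl* were singled out after their values were seen. Monocytes needed at least 3 *Ly6c2* and 10 *Lyz2* UMIs, macrophages at least 10 C1q UMIs and B cells at least 2 *Cd79a* UMIs.

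UMIs were summed over cells and divided by the total as CPM. A gene needed 30 UMIs over both libraries, or, between populations or subgroups, over the pair compared in each library, a ratio of 2 or 0.5 was the descriptive fold, and the floor was 3 UMIs. With 1 library per group no p-value was computed. Intervals were tested on simulated independent counts, the model on which they are built. The simulation lacks the clustering of UMIs in single cells seen here, so it does not show their coverage for these data. Python 3.11.15, NumPy 2.4.6, SciPy 1.17.1, pandas 2.3.3 and Scanpy 1.11.5 (Scrublet, expected rate 0.02) were used. Gene positions came from GENCODE vM21, in which 355 of 355 identifiers looked up were found. Alternatives varied filters, choice, scaling, thinning and cells. Flow cytometry and other data of the study were not analysed here.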

Additional observations from a re-analysis of the deposited data

How the results depend on the processing

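No paired analysis was possible because each group had 1 library and the labels gave no shared numbers, and no replicate could be left out. The ratio of the dendritic cell shares stayed within its counting interval under every alternative, from 1.18 with a mitochondrial limit of 2% to 1.83 among cells with at most 1 C1q UMI. Shares with *Clec9a* or *Xcr1* became 9.09% (control) and 10.2% (AdipoΔ/Δ) after thinning. Counts of genes past 2-fold between the libraries moved as follows. In place of 291 higher and 27 lower they were 174 and 61 with median-of-ratios scaling, 34 and 4 with at least 100 UMIs, 1008 and 243 with at least 10 UMIs, 445 and 49 with the mean of per-cell CPM, 31 and 9 after thinning, and 177 and 11 without the richest cell of each gene. Scaling without *Gm42418*, *Lars2*, mitochondrial and ribosomal protein genes gave 196 and 53, and leaving out cells with at least 3 *Lpl* UMIs gave 144 and 34. For the populations, at least 100 UMIs gave 40 higher and 215 lower against monocytes, 27 and 64 against C1q macrophages, and 157 and 60 against B cells. Fewer genes are counted under a higher minimum. A change of direction was looked for only in named genes past 2-fold in the main setting, and 6 showed one. *Itgam* went to 0.917 and *Rtl8a* to 1.13 after thinning, and *Retnla* to 0.716 with a sum of at least 3. *Fn1* went to 0.673 and *Il1rn* to 0.821 without cells with at least 3 *Lpl* UMIs. *Klra4* went to 0 without its richest cell, which the setting without the cells rich in natural killer genes or *Ccl17* also leaves out. Thinned ratios rest on 1 random draw, in which *Mki67* had no UMI, while 4 cells kept one in the separate draw behind the shares. Without the richest cell the bound for *Ccl22* was 2.77. Alternatives that left out single cells, the *Lpl*-rich cells or cells with G2/M genes, the *Clec9a* and *Xcr1* cells or the richest cell of each gene, and the scaling without ribosomal genes, were chosen after seeing the data.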

Other observations

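Beyond the lineages described, plasmacytoid dendritic cell genes had 3 of 12 members counted, none past 2-fold, with summed levels of 357 CPM in control and 399 CPM in AdipoΔ/Δ dendritic cells, against 1748 and 1808 in B cells. Among receptors for growth factors, none of 8 counted genes passed 2-fold, and *Csf2ra*, a subunit of the receptor for granulocyte-macrophage colony-stimulating factor, had 115 and 183 CPM, a ratio of 1.58 (1.13 to 2.24). Of the pattern sensors 3 genes were counted and none passed 2-fold. Over all genes counted, 7.68% were at least 2-fold higher and 0.713% lower. With so few genes the counts of these lists are near that share and are no result about the lists. *Kit*, the stem cell factor receptor, had 1 UMI in the control and 9 in 6 AdipoΔ/Δ cells.

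*Flt3* was the only admitting gene in 4 AdipoΔ/Δ cells. Their classical monocyte genes summed to 35013 CPM, against 1522 CPM in the 2 control cells of this kind and 41444 CPM in AdipoΔ/Δ monocytes. The value in monocytes is set in part by their choice on *Ly6c2* and *Lyz2*, which the list holds. The 4 AdipoΔ/Δ cells had a median of 2250.5 UMIs. A single one of them held 11501 of their 17222 UMIs. It was among the cells rich in *Lpl*, with 8 *Lpl* and 54 *Fn1* UMIs, so the pooled level rests largely on it and does not describe the 4 cells as a kind.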
